A study of Mus musculus with 2 samples.

Results

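The genes described here encode the proteins of the cytosolic ribosome. They were taken by symbol, as every gene named Rpl or Rps with a number and at most 1 of the endings a, x, l or p, together with Rplp0, Rplp1, Rplp2 and Rpsa. This gave 80 of the 32285 genes in the count matrix, 49 of the large and 31 of the small subunit. The choice used no measured value.

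The cells came from orthotopic pancreatic tumors grown in C57BL/6 mice from KPC cells, a cell line made from the pancreatic cancer of KPC mice, a genetically engineered model of the disease that uses Pdx1-Cre. Both libraries therefore share the same line and host strain. The control library was made from tumors that the study calls untreated, while its methods describe a sham needle insertion for control mice. The iIRE library was made from residual tumors after insufficient irreversible electroporation, in which electric pulses ablate part of a tumor. These residual tumors were collected 3 days after treatment. Single cells of both libraries were sequenced with a 5′ kit, which counts each captured transcript as 1 unique molecular identifier (UMI). Each condition is 1 library, and the number of tumors in it is not given in the sources used here, so no test between the conditions was possible and library and condition cannot be told apart. Intervals below are exact, at 95%, and cover counting error only.

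A ribosome joins a small subunit, which reads the mRNA, with a large subunit, which forms the peptide bonds, and it holds 1 copy of most of its proteins. In growing cells ribosomal protein mRNAs are among the most abundant of all. Most vertebrate ribosomal protein mRNAs begin with a terminal oligopyrimidine (TOP) tract, a C followed by a run of C and T (U in the mRNA), through which mTOR signaling and LARP1 set their translation and stability together with those of translation factors.

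The start regions of 60 of the 80 genes were found in the RefSeq promoter table (GRCm38.p6), with 72 annotated starts. At the annotated base itself, 13 of the 72 starts (18.1%) read C followed by 4 bases that are all C or T, against 823 of all 32851 starts in the table (2.51%). Within 10 bases of the start, 40 of 72 (55.6%) held such a run, against 29.7% of all starts. In the 300 bases around the start, CCGGAAG, the core letters of an ETS factor motif, stood on either strand in 26 of 72 windows (36.1%), against 8.86% of all windows. CTTTCC, on either strand, stood in 36 of 72 windows, against 26.6% of all windows, and TATAA in 23.6%, against 24.9%. A match is a description of letters, and annotated starts can lie some bases away from those used in a cell. The 30 bases around the start (15 before, 15 after, on the strand of the gene) are shown for the most abundant members, for the member that differed most between the libraries in tumor-type cells and for 2 pairs of a member and its paralog, with the longest run of C and T near the start in capitals.
Rps2, chr17:24720048-24720077, + strand: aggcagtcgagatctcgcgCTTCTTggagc
Rplp0, chr5:115559452-115559481, + strand: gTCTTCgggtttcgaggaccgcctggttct
Rps18, chr17:33955651-33955680, - strand: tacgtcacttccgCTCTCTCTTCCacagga
Rps27, chr3:90213634-90213663, - strand: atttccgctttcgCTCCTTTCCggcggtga
Rps27l, chr9:66946071-66946100, + strand: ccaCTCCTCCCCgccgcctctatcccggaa
Rpl39, chrX:37085208-37085237, - strand: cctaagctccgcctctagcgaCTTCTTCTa
Rpl39l, chr16:10170213-10170242, + strand: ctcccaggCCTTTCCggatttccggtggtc
In Rps18 and Rps27 the run crosses the annotated start, and in Rps2 and Rpl39 it begins a few bases after it. The window of Rps27l is the first of 2 annotated starts.

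After filtering and removal of doublets, the control library held 15274 cells and 198000463 UMIs and the iIRE library 15991 cells and 184031961 UMIs, with a median of 8010.5 and 6799 UMIs per cell. The libraries shared 458 barcode sequences. Cells were assigned to 11 classes by 9 lists of 8 marker genes each, none of them a ribosomal protein gene, and by Cdkn2a. Cdkn2a was taken here as a mark of the KPC cells. CPM are UMIs of a gene per 1000000 UMIs of the class in a library. Cdkn2a stood at 1094 to 1519 CPM in the 3 tumor-type classes, which were gated on it, so this level is no separate support. The 4 Y-linked genes Ddx3y, Eif2s3y, Kdm5d and Uty, which male host cells express, summed to 0.265 to 3.42 CPM in these classes and to 112 and 109 CPM in macrophage/monocyte cells. Acinar-gated cells went against their label as host cells, with Cdkn2a at 805 and 891 CPM and the Y-linked genes at 5.69 and 15.2 CPM. Other Cdkn2a-positive cells had Cdkn2a UMIs but were not assigned to the epithelial or mesenchymal list. Such cells had too few of its markers or too small a lead over another list. The classes with at least 100 cells in each library were epithelial tumor-type, mesenchymal tumor-type and other Cdkn2a-positive cells, macrophage/monocyte cells and neutrophils. Share ratios and counts of members between the libraries were computed for these 5, and of the smaller classes only the levels of some members are set side by side.

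Ribosomal protein genes gave 19.0% of all UMIs in the control library and 19.0% in the iIRE library. They are 0.248% of the genes, and 28 of the 50 and 56 of the 100 most abundant genes were members. The UMIs of 5′ libraries count transcript ends and are not divided by length, so levels can be set side by side as transcript counts, apart from differences in capture. On this scale 77 members lay between 285 and 7220 CPM with a median of 2288 CPM, and 60 of the 77 were within 2-fold of that median, although the highest was 25.3 times the lowest. The other 3 members, all paralogs, had almost no UMIs.

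Rps2, a small-subunit protein near the mRNA entry channel, was the highest member, at 7269 CPM in the control and 7167 CPM in the iIRE library. Rplp0, the base of the P stalk that recruits translation factors to the large subunit, followed with 6832 and 6820 CPM. Rpl19 (5684 and 5769 CPM), Rps27a, which is made as a fusion with ubiquitin (4889 and 4802 CPM), and Rpl32 (4900 and 4757 CPM) came next. Among the lowest of the 77 were Rps25 (562 and 544 CPM), Rps15 (488 and 488 CPM) and Rps27l (272 and 300 CPM). The 2 partners of Rplp0 in the P stalk were lower than it, with Rplp1 at 1826 and 2166 CPM and Rplp2 at 1354 and 1485 CPM. Rpsa, the small-subunit protein also known as the laminin receptor, stood at 4082 and 4216 CPM.

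The members ending in l are paralogs, and 3 of the 4 were at or near 0. Rpl3l, the striated muscle form of Rpl3, had 36 UMIs in the control and 33 in the iIRE library, at 0.182 and 0.179 CPM. Epithelial tumor-type cells gave 1 of these UMIs in each library, mesenchymal tumor-type cells 3 and 2, other Cdkn2a-positive cells 8 and 6, macrophage/monocyte cells 9 and 12, and neutrophils 5 and 7. In neutrophils these few UMIs amount to 11.7 and 18.7 CPM. Rpl39l, known from male germ cells, had 11 and 18 UMIs, of which 5 and 6 came from macrophage/monocyte cells. Rpl10l, the testis form that replaces Rpl10 in meiosis, had 0 UMIs in both libraries, which allows a level of up to 0.0152 CPM in the control and 0.0163 CPM in the iIRE library. Rps27l, a p53-responsive paralog of Rps27, was the only 1 of these 4 members expressed at a level of the same order as other members. Counts of Rpl10, Rpl36, Rpl36a, Rpl9 and Rps27 are uncertain, because the annotation holds near-identical copies among which reads can be split or lost, and Rpl9-ps6 alone had 16835 UMIs.

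The ribosomal protein share of UMIs ranged from 9.04% to 21.5% over the classes of the control library and from 10.8% to 20.7% over those of the iIRE library, as the plot of the share by class shows. Neutrophils, short-lived granulocytes, had the lowest share, with a median per cell of 3.14% in the control and 3.34% in the iIRE library. T/NK cells had 21.5% and 20.2% of pooled UMIs (75 and 26 cells). Epithelial tumor-type cells had 20.7% in both libraries (870 and 943 cells). Other Cdkn2a-positive cells had 20.4% and 20.1% (5231 and 6150 cells), and mesenchymal tumor-type cells, taken here as the same line, 17.7% and 18.1% (4586 and 3986 cells).

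Among host cells, osteoclast-gated cells had 19.7% and 19.8% (91 and 111 cells), and dendritic cells 19.2% and 20.3% (59 and 22 cells). Macrophage/monocyte cells had 16.8% and 16.7% (1109 and 1133 cells), endothelial cells 14.9% and 17.1% (35 and 31 cells) and host fibroblasts 13.3% and 15.6% (43 and 69 cells). Acinar-gated cells had 16.6% and 16.4% (65 and 84 cells). The order of T/NK, epithelial tumor-type, other Cdkn2a-positive, osteoclast-gated and dendritic cells changed between the libraries, as did that of endothelial, macrophage/monocyte and acinar-gated cells, so these neighbors were not told apart. In the iIRE library the 26 T/NK cells also held Cdkn2a at 515 CPM and epithelial markers at 983 CPM. Endothelial cells held Cdkn2a at 183 and 394 CPM and epithelial markers at 275 and 527 CPM. The part of these transcripts in the shares of both classes was not tested.

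**Figure D1:**
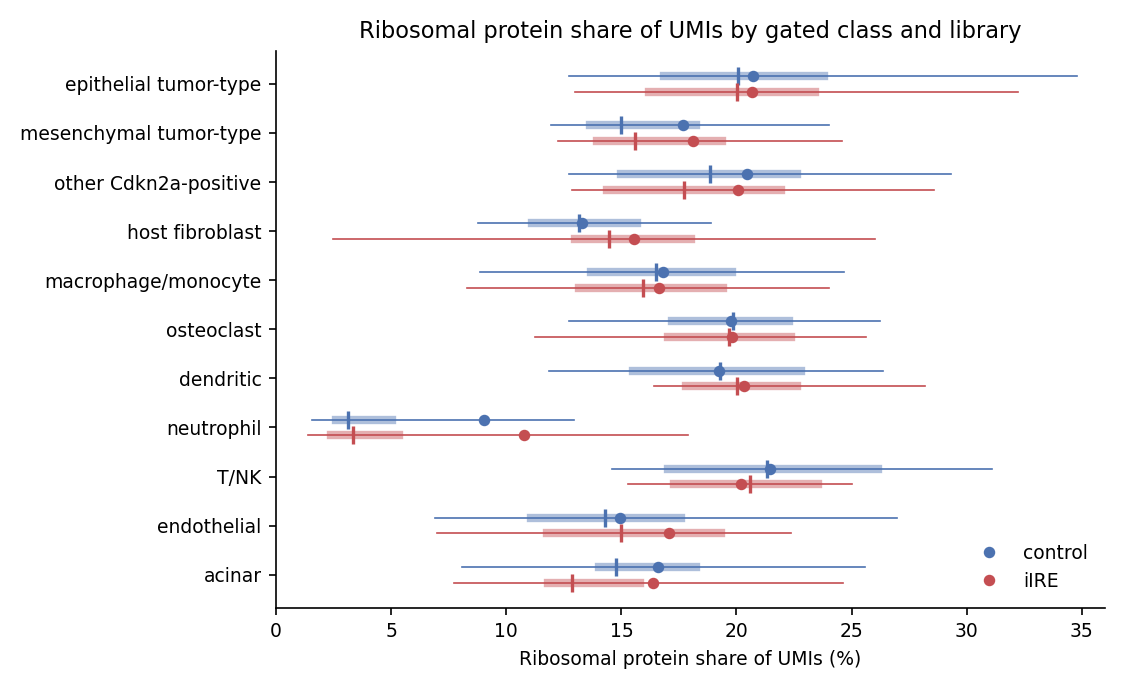
Ribosomal protein share of UMIs (x axis, percent) in the 11 gated classes (y axis) of the control (blue) and iIRE (red) libraries. Dots are pooled UMIs, ticks the median over cells, thick bars the middle 50% and thin lines the 5th to 95th percentile of cells. Neutrophils sit lowest, with their pooled dots well above their median cells.

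Between the libraries the share hardly moved in the 4 largest classes. The log2 ratio of iIRE over control was -0.0034 in epithelial tumor-type cells (-0.0055 to -0.0013), 0.037 in mesenchymal tumor-type cells (0.035 to 0.038), -0.026 in other Cdkn2a-positive cells (-0.027 to -0.025) and -0.014 in macrophage/monocyte cells (-0.017 to -0.010). None reached 1.2-fold, the threshold of the study for a changed gene, which is 0.26 on this scale. The spread between single cells was far larger, with an SD of 6.81 and 6.49 percentage points in epithelial tumor-type and 4.89 and 4.98 in macrophage/monocyte cells. Mitochondrial transcripts were lower in the iIRE library in each of these classes, for example 1.45% and 1.23% of UMIs in epithelial tumor-type cells. Their part in the values was not tested.

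In neutrophils the pooled share was 9.04% and 10.8% (151 and 152 cells), a log2 ratio of 0.25. This value rested on few cells. Of the neutrophil-gated cells, 17 and 12 held a UMI of Cdkn2a, and their share was 13.1% and 19.8%. Together these cells carried 203912 of 428829 and 158072 of 375018 of the class's UMIs. Without them the share was 5.38% and 4.25% (134 and 140 cells), and the log2 ratio turned to -0.34. Among neutrophils with 1000 to 2000 UMIs the shares were 3.66% and 3.72% (130 and 129 cells), and the medians per cell without Cdkn2a were 3.09% and 3.19%. A direction for neutrophils is therefore not given. Without cells that held Cdkn2a, macrophage/monocyte cells kept 16.7% and 16.6%.

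The share changed with the depth of the cell within the tumor-type classes. In mesenchymal tumor-type cells it was 14.5% in both libraries at 2000 to 5000 UMIs, 14.7% and 15.4% at 5000 to 10000, 18.2% and 19.1% at 10000 to 20000, and 19.1% and 18.9% at 20000 to 50000 UMIs. Mesenchymal tumor-type cells above 10000 UMIs thus gave a larger part of their UMIs to ribosomal proteins than shallower ones from 2000 UMIs, in both libraries. Other Cdkn2a-positive cells had no steady order, with 19.6% and 22.7% at 1000 to 2000 UMIs (49 and 75 cells), 16.1% and 15.3% at 2000 to 5000, 17.2% and 17.6% at 5000 to 10000, 21.6% in both libraries at 10000 to 20000 and 20.7% and 20.4% at 20000 to 50000. Nor did epithelial tumor-type cells rise with depth, with 23.0% and 22.1% at 5000 to 10000 and 20.2% and 20.1% at 20000 to 50000 UMIs. In macrophage/monocyte cells the share was 17.6% and 14.8% at 1000 to 2000 UMIs, 16.7% and 15.4% at 2000 to 5000, 16.4% and 16.3% at 5000 to 10000, and 16.8% and 18.0% at 10000 to 20000. Over these bins it went up with depth in the iIRE but not in the control library. At 20000 to 50000 UMIs, a bin below the limit of 20 cells per library, it was 19.7% and 19.1% (14 and 11 cells). Both libraries were thus higher there than in the shallower bins. The largest gaps between the libraries were in bins with few cells, such as 20.8% and 17.2% in epithelial tumor-type cells at 2000 to 5000 UMIs (50 and 96 cells).

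**Figure D2:**
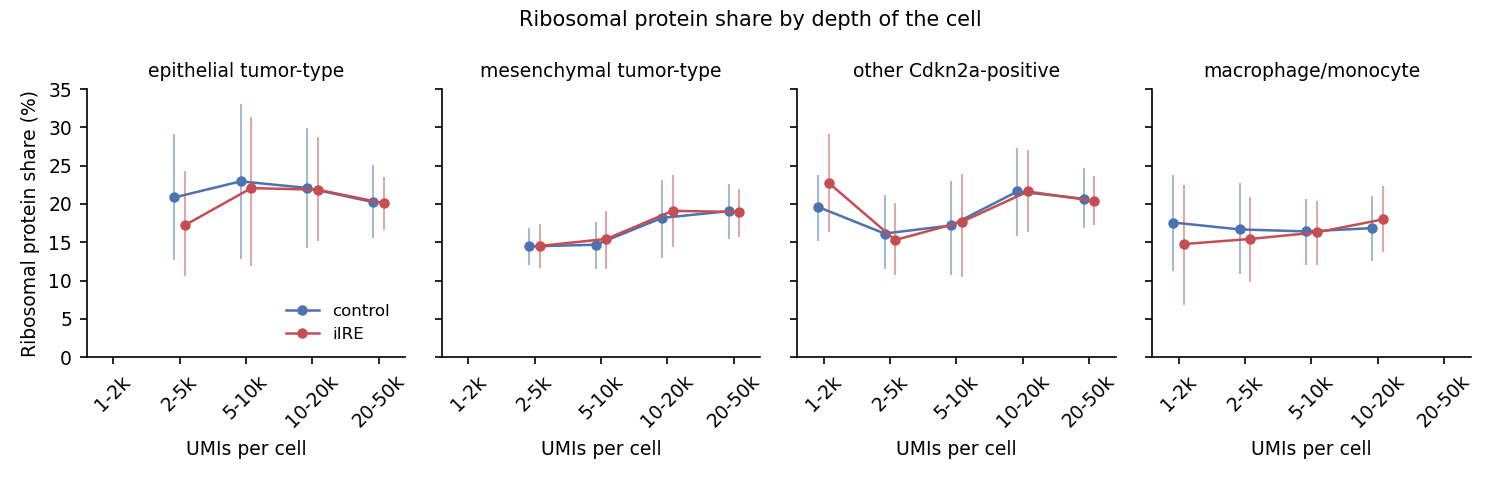
Ribosomal protein share (y axis, percent) against UMIs per cell (x axis, in bins, k for 1000) in 4 classes, for the control (blue) and iIRE (red) libraries. Dots are pooled UMIs of the bin and bars the mean and SD over cells. Mesenchymal tumor-type cells climb from 14.5% to about 19% in both libraries. Macrophage/monocyte cells climb from 14.8% to 18.0% between 1000 and 20000 UMIs in the iIRE library and not in the control. Bins with fewer than 20 cells in a library are not drawn.

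The spread of single cells was alike in both libraries. In mesenchymal tumor-type cells the middle 50% of cells lay between 13.6% and 18.3% in the control and between 13.9% and 19.4% in the iIRE library. In epithelial tumor-type cells it lay between 16.8% and 23.8% and between 16.2% and 23.4%. The 5% of epithelial tumor-type cells with the highest share were above 34.8% and 32.2%.

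Single members were next compared between the libraries by their CPM in a class, as the log2 ratio of iIRE over control with 10 CPM added to both. Of the 80 members, 77 had at least 50 UMIs in each compared class, and a member was counted when it passed 1.2-fold. In epithelial tumor-type cells 0 members were higher and 1 lower in the iIRE library, while 2.08% of all genes with 50 UMIs were higher and 1.42% lower. In mesenchymal tumor-type cells 1 was higher and 1 lower (0.956% and 1.32% of all genes). In other Cdkn2a-positive cells 0 were higher and 1 lower (0.995% and 0.583%). In macrophage/monocyte cells 0 were higher and 2 lower (7.08% and 3.44%). The members' medians were -0.0022, 0.036, -0.028 and -0.015, next to 0.0078, -0.0029, 0.011 and 0.041 over all genes. These counts and medians show small differences, and in the 3 tumor-type classes the counts are close to the share over all genes. All genes include ones far below the level of the members, whose ratios the added 10 CPM shrinks. The share over genes as abundant as the members was not computed.

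Rps18, a protein of the head of the small subunit, was the member with the largest difference in each of these 4 classes. In epithelial tumor-type cells it stood at 2812 CPM in the control and 2173 CPM in the iIRE library, a log2 ratio of -0.37 (-0.39 to -0.35). In mesenchymal tumor-type cells it stood at 2378 and 1884 CPM, a ratio of -0.33. Other Cdkn2a-positive cells had 2866 and 2137 CPM (-0.42). Macrophage/monocyte cells had 1672 and 1301 CPM (-0.36, between -0.40 and -0.32). The Rps18 level was also lower in the iIRE library in osteoclast-gated cells (1966 and 1600 CPM), T/NK cells (2257 and 1673 CPM) and acinar-gated cells (2217 and 1581 CPM), but not in endothelial cells (1469 and 1544 CPM), and in dendritic cells (1891 and 1730 CPM) the interval of the ratio included 0. Neutrophils had 1007 and 981 CPM (-0.038). With no doublets removed they had 1712 and 1420 CPM (-0.27). Without cells that held a UMI of Cdkn2a they had 365 and 212 CPM (-0.75). The neutrophil value thus depended on which cells were kept. The lower level was seen in the tumor-type classes and in some host classes, but not in endothelial cells, whose Cdkn2a is noted above.

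Rps29, a zinc-binding small-subunit protein, went the other way. It stood at 1675 and 2008 CPM in epithelial tumor-type cells, 1427 and 1752 CPM in mesenchymal tumor-type cells, 1658 and 1981 CPM in other Cdkn2a-positive cells and 2407 and 2725 CPM in macrophage/monocyte cells. The log2 ratios were 0.26, 0.29, 0.26 and 0.18, and only that of mesenchymal tumor-type cells passed 1.2-fold. Rplp1, of the P stalk, was close to it with 2059 and 2443 CPM in epithelial tumor-type and 2352 and 2745 CPM in macrophage/monocyte cells. Its ratios in the 4 classes were 0.25, 0.26, 0.22 and 0.22. Smaller differences in the same direction were seen for Rps12 (0.16, 0.21, 0.17 and 0.12), Rps20 (0.15, 0.19, 0.11 and 0.19) and Rps13 (0.15, 0.18, 0.13 and 0.15). Rpl21 (-0.19, -0.13, -0.17 and -0.18), Rpl23 (-0.13, -0.091, -0.17 and -0.19) and Rpl36a (-0.14, -0.12, -0.20 and -0.14) were lower. These classes come from the same 2 libraries, so they are not independent views of a difference.

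Rpl10a, a large-subunit protein of the L1 stalk, differed between the classes. It stood at 2668 and 2876 CPM in epithelial tumor-type cells (0.11), at 2392 and 2605 CPM in mesenchymal tumor-type cells (0.12) and at 2851 and 2953 CPM in other Cdkn2a-positive cells (0.051). In macrophage/monocyte cells it was 2490 and 2043 CPM, a log2 ratio of -0.28 (-0.32 to -0.25). Osteoclast-gated cells (3071 and 2602 CPM), dendritic cells (2387 and 2044 CPM) and T/NK cells (3111 and 2371 CPM) also had less in the iIRE library, whereas host fibroblasts (2334 and 2274 CPM) and endothelial cells (2130 and 2163 CPM) had intervals of the ratio that include 0. With no doublets removed, the ratio in macrophage/monocyte cells was -0.19 and no longer past 1.2-fold. The difference between the classes was not tested.

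**Figure D3:**
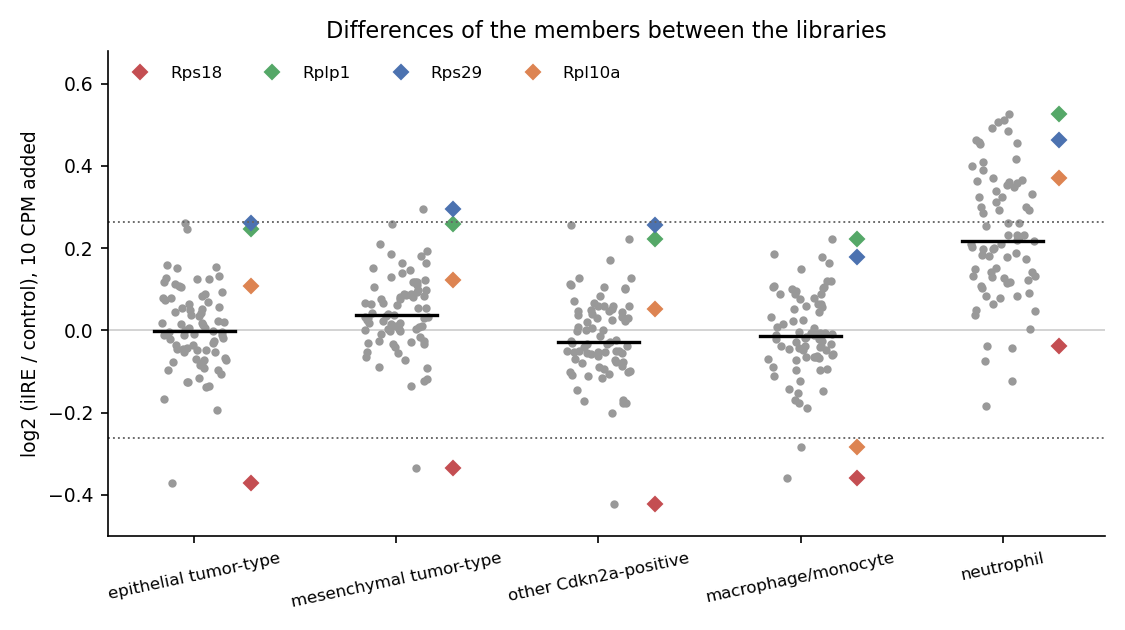
Log2 ratio of iIRE over control CPM, with 10 CPM added (y axis), of the 77 measured members in the 5 compared classes (x axis). Gray dots are members, black lines medians, colored diamonds 4 named members shown again to the right, and dotted lines 1.2-fold. Rps18 lies lowest in 4 classes, and Rpl10a crosses 0 in macrophage/monocyte cells.

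In neutrophils 30 members were higher and 0 lower by CPM, while 21.6% of all genes with 50 UMIs were higher and 25% lower, and the members' median was 0.22. Without the cells that held Cdkn2a, 0 were higher and 53 lower (24.9% and 29% of all genes), with a median of -0.35. When CPM were taken relative to the member UMIs of each library instead, 1 was higher and 5 lower. Rplp1 was at 933 and 1347 CPM with these cells and at 600 and 484 CPM without them. Neither count is read as a difference between the conditions.

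A larger contrast lay between cell types. Macrophage/monocyte cells were compared with epithelial tumor-type cells in each library on its own, so that the 2 libraries give 2 separate values. By CPM, 4 of 77 members were past 1.2-fold higher in macrophage/monocyte cells in both libraries and 37 lower, while 23.9% of all genes were higher and 38% lower in both. The members' medians were -0.20 and -0.26, next to -0.17 and -0.13 for all genes. These classes also differ in depth, with medians of 20472.5 and 16883 UMIs per epithelial tumor-type cell and 6665 and 5856 per macrophage/monocyte cell. The summed markers of the macrophage list stood at 19087 and 17429 CPM in macrophage/monocyte and at 23.2 and 31.9 CPM in epithelial tumor-type cells, and the part of depth was not tested.

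To set the amount of ribosomal protein mRNA aside, each member was then taken as a share of all member UMIs. On this scale 26 members were past 1.2-fold higher and 16 lower in macrophage/monocyte cells in both libraries, and 74 of 77 had the same direction in both. Taken per member UMI in the same way, 37.4% of all genes were higher and 33.1% lower in both. Shares of a fixed total offset each other, so members in both directions are part of this scale. The Pearson correlation of the 77 log2 ratios between the libraries was 0.98. It is across genes, which are not independent replicates. The median gap between the libraries was 0.037 and the largest 0.38, that of Rpl10a (0.20 in the control and -0.18 in the iIRE library).

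Rpl7 (-0.82 and -0.88), Rps2 (-0.78 and -0.79), Rplp0 (-0.78 and -0.80) and Rpl19 (-0.71 and -0.72) took a smaller part of the ribosomal protein UMIs in macrophage/monocyte cells. Rps27l (0.88 and 0.94), Rps29 (0.82 and 0.75), Rpl39, which lines the exit tunnel of the large subunit (0.67 and 0.59), Rps25, needed for several viral internal ribosome entry sites (0.56 and 0.63), and Rplp1 (0.49 and 0.48) took a larger part. For each of these 9 members the difference between the cell types was larger than the gap between the libraries. In CPM, Rps2 stood at 3914 and 3866 in macrophage/monocyte and 8305 and 8293 in epithelial tumor-type cells. Rps27l stood at 420 and 471 against 280 and 304 CPM.

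**Figure D4:**
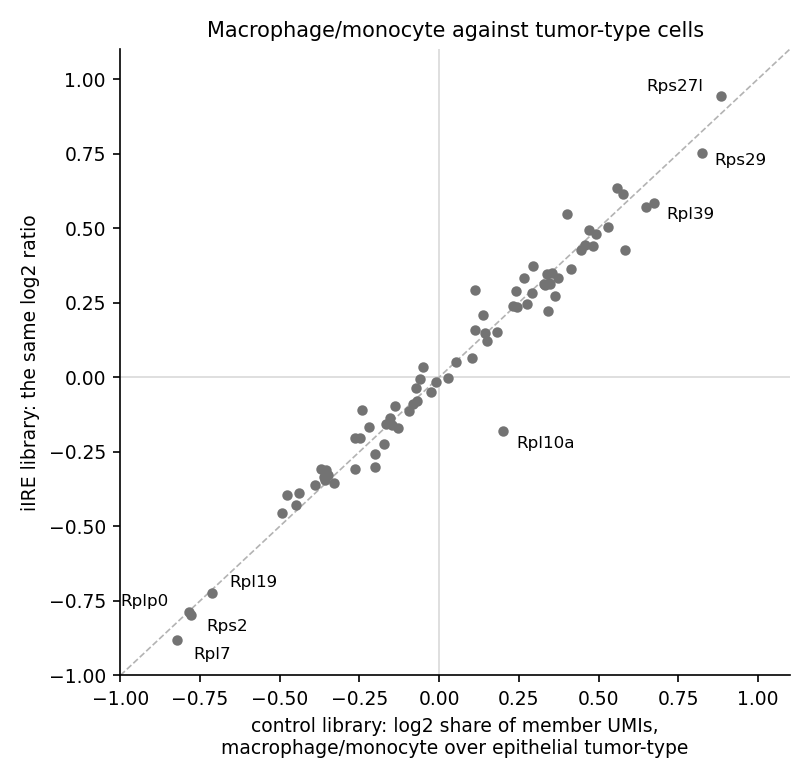
Log2 ratio of each member's share of ribosomal protein UMIs, macrophage/monocyte over epithelial tumor-type cells, in the control (x axis) and the iIRE library (y axis), for 77 members. The dashed line marks equal values. Points follow the line from Rpl7 (-0.82 and -0.88) to Rps27l (0.88 and 0.94), with Rpl10a away from it.

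The members with the largest spread of their share over the 5 compared classes were Rps27l, Rps27, Rplp0, Rps29, Rps2 and Rpl7. Of 10000 member UMIs, Rps2 took 378 to 401 in the 3 tumor-type classes over both libraries and 176 to 308 in the host classes other than neutrophils. Rplp0 took 359 to 379 in tumor-type classes and 205 to 265 in those host classes. Rpl7 took 107 to 125 and 66.5 to 91.0. These 3 members were chosen for their spread over classes. Of the 77 members, 14 (18.2%) lay higher in every tumor-type class than in these 6 host classes and 19 (24.7%) lower, in both libraries, while 4.17% and 2.36% of all genes did so on the same scale. All genes are here those with at least 50 UMIs in macrophage/monocyte and epithelial tumor-type cells together, in each library. Genes with few counts overlap more easily in small classes, such as T/NK cells of the iIRE library with 126114 UMIs. The share over genes as abundant as the members was not computed, so the excess is not read as a trait of the members. Neutrophils (606 and 571 CPM of Cdkn2a) and acinar-gated cells were left out of these counts after their Cdkn2a level was seen. T/NK cells, with 159 and 515 CPM, and endothelial cells, with 183 and 394 CPM, stayed in. How the counts depend on this choice was not tested. Acinar-gated cells, with the Cdkn2a noted above, lay between the tumor-type classes and the 6 host classes for Rps2 (323 and 367) and Rplp0 (306 and 339). Neutrophils, whose UMIs are in large part from cells with Cdkn2a, also had high values (319 and 308 for Rps2).

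Rps27 and its paralog Rps27l did not share 1 pattern. Rps27 took 58.3 to 66.6 of 10000 in tumor-type classes, 104 and 124 in dendritic cells, 120 and 114 in T/NK cells and 119 in neutrophils of both libraries. Rps27l took 13.5 to 14.9 in tumor-type classes, 38.6 and 41.5 in dendritic cells and 24.98 and 28.3 in macrophage/monocyte cells, but 10.3 and 13.4 in T/NK cells. T/NK cells thus had a high Rps27 share. Their Rps27l share was below that of dendritic and macrophage/monocyte cells in both libraries. In the iIRE library, with 26 T/NK cells, it lay next to the tumor-type range. Rps29 was highest in macrophage/monocyte cells (143 and 164) and took 80.8 to 98.7 in tumor-type classes.

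**Figure D5:**
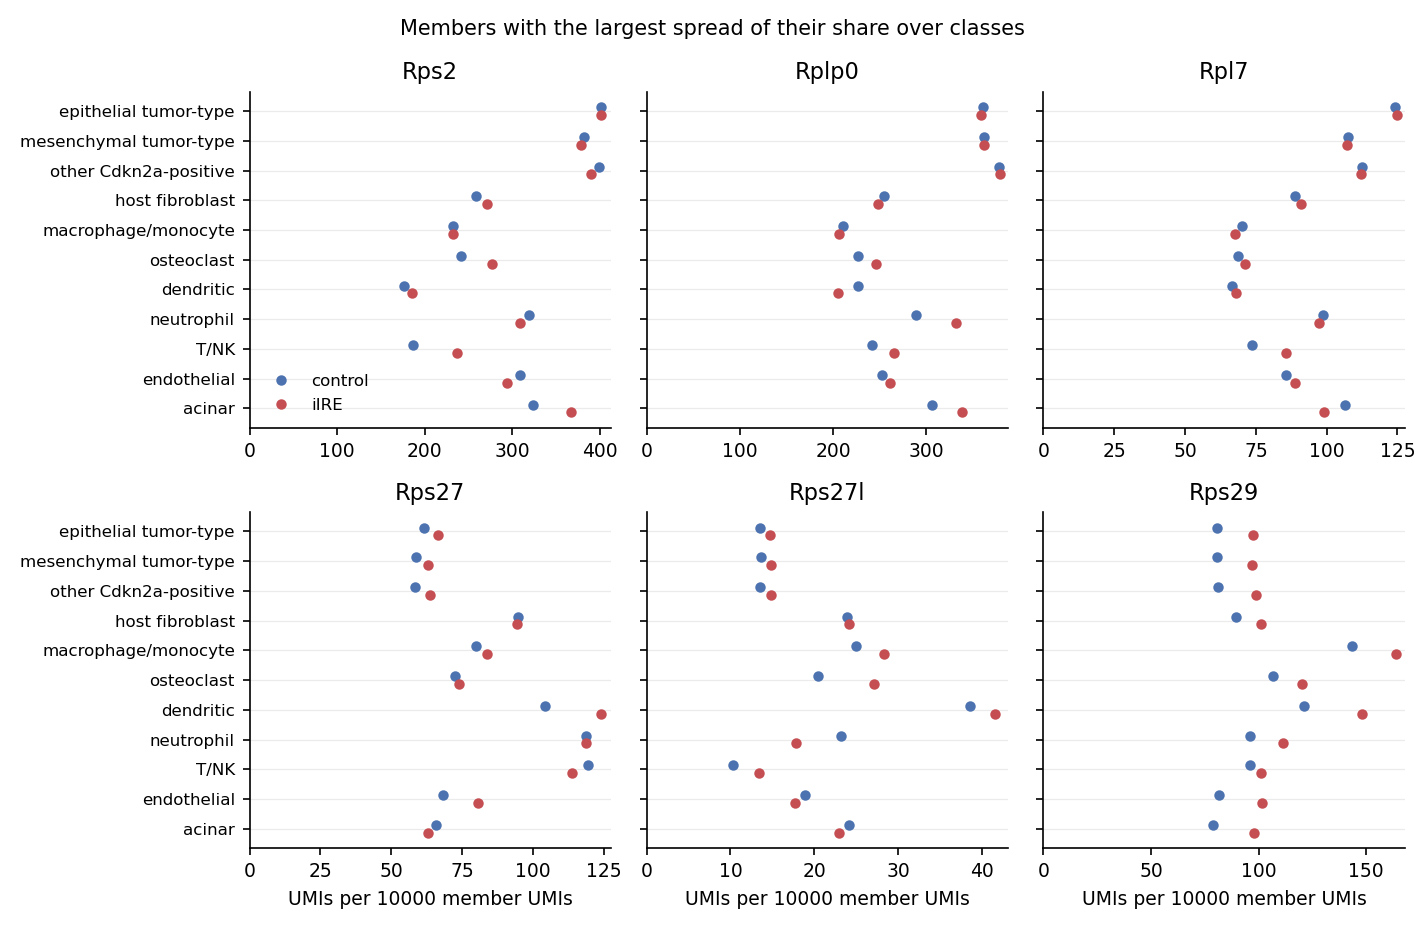
UMIs per 10000 ribosomal protein UMIs (x axis, from 0) of 6 members in 11 classes (y axis), in the control (blue) and iIRE (red) libraries. Rps2, Rplp0 and Rpl7 are highest in the 3 tumor-type classes, and Rps27 and Rps27l in host classes.

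By subunit, members of the large subunit gave 60.2% and 59.5% of the ribosomal protein UMIs in epithelial tumor-type cells, 60.6% and 60.1% in mesenchymal tumor-type cells and 60.2% and 59.6% in other Cdkn2a-positive cells. Macrophage/monocyte cells had 57.2% and 56.3%, and dendritic cells 55.9% and 54.8%. Endothelial cells (59.4% and 58.1%), neutrophils (58.8% and 58.3%) and acinar-gated cells (59.5% and 58.8%) lay closer to the tumor-type classes. They held Cdkn2a at 183 and 394, 606 and 571, and 805 and 891 CPM, in this order. T/NK cells, with Cdkn2a at 159 and 515 CPM, had 57.2% and 57.1%. The part of cells with Cdkn2a in these values was not tested. In each of the 11 classes the control library had the higher value.

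Other genes of the translation machinery were given by list. Of 20 translation factors and further TOP genes, 1 was past 1.2-fold higher and 0 lower in each of the 4 largest classes, while 2.08%, 0.956%, 0.995% and 7.08% of all genes were higher, and their medians lay between -0.039 and -0.0077. The 1 gene was Pabpc1, which encodes the cytosolic poly(A)-binding protein, with 284 and 730 CPM in epithelial tumor-type cells (a log2 ratio of 1.33), 255 and 597 CPM in mesenchymal tumor-type cells (1.195), 256 and 653 CPM in other Cdkn2a-positive cells (1.32) and 304 and 586 CPM in macrophage/monocyte cells (0.92). It was chosen here after its values were seen. The highest gene of the list in epithelial tumor-type cells was Vim, the intermediate filament protein vimentin, at 8546 and 8882 CPM (0.055), with 3644 and 3735 CPM (0.035) in macrophage/monocyte cells. Eef1a1, the elongation factor that brings tRNA to the ribosome and the highest translation factor of the list, was at 5188 and 4504 CPM in epithelial tumor-type (-0.20) and 4691 and 3997 CPM in macrophage/monocyte cells (-0.23). Tpt1 was at 3618 and 3516 CPM (-0.041) and 3899 and 3631 CPM (-0.10). Of this list, Pabpc1 alone thus differed more than Rps18.

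Of 22 ribosome biogenesis genes, which act in the nucleolus, 0 were higher and 1 lower in epithelial and in mesenchymal tumor-type cells and 0 either way in other Cdkn2a-positive cells, next to 1.42%, 1.32% and 0.583% of all genes lower. In macrophage/monocyte cells 3 were past 1.2-fold higher (Polr1b, Rrp9 and Nop58), next to 7.08% of all genes, and 20 of 22 (90.9%) were above 0, as were 61.1% of all genes, with a median of 0.17 next to 0.041 for all genes. The highest of them, Npm1, nucleophosmin, was at 757 and 900 CPM (0.25), and Ncl, nucleolin, at 345 and 402 CPM (0.21). Of 78 mitochondrial ribosomal protein genes, 7 were past 1.2-fold higher and 0 lower in macrophage/monocyte cells, with a median of 0.098. Mrpl52 (261 and 322 CPM) was one of these. In macrophage/monocyte cells the median of the cytosolic ribosomal protein genes (-0.015) was below the medians of both lists. A share of 7 of 78 is near the 7.08% of all genes.

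Some genes of the ribosome do not have a symbol of the form used here. Fau, which encodes a small-subunit protein fused to a ubiquitin-like protein, was at 3975 and 4092 CPM, Rps3a1 at 3236 and 3129 CPM, Rpl22l1, the paralog of Rpl22, at 1058 and 998 CPM, and Rpl36al at 896 and 886 CPM. Rps27rt, a retrotransposed copy of Rps27, was at 14.2 and 21.6 CPM. With 7 such genes added, the share ratios in the 5 classes stayed within counting error.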

How the data were processed

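Transcripts of single cells were counted in 1 control and 1 iIRE library. Both are in 1 matrix, where barcodes end in a number that stands for the library. The deposited values are raw UMI counts, which the authors obtained with Cell Ranger and the mm10 genome and did not normalize. The file header names Cell Ranger 7.0.1, while the methods of the study name another version.

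Cells were kept with at least 1000 UMIs and 200 genes, with log10 of the genes at 0.7 or more of log10 of the UMIs, and with at most 5% mitochondrial and 5% hemoglobin UMIs. Doublets were scored in each library (Scrublet in scanpy 1.11.5, 30 principal components, 1 simulated doublet per cell), and the highest scores were removed at 0.8% per 1000 cells, 2538 control and 2836 iIRE cells. A cell was assigned to the list of which it had the most markers, at least 3 and 2 more than of any other list. Cells of the epithelial and mesenchymal lists counted as tumor-type with at least 2 UMIs of Cdkn2a. Mesenchymal-gated cells counted as host fibroblasts with 0 UMIs of Cdkn2a and at least 1 of a Y-linked gene. No assignment was made for 2959 control and 3284 iIRE cells.

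For each class and library the UMIs of all its cells were added up. Shares have exact Clopper-Pearson intervals, and ratios exact conditional ones, both at 95%. A gene was counted with at least 50 UMIs in the class over both libraries. A count of 0 allows up to 3 counts. With 1 library per group there was no test, and cells were not taken as replicates. TMM factors came from edgeR 4.0.16. The ratio, its interval and the 1.2-fold rule were tested on simulated counts of epithelial tumor-type and macrophage/monocyte cells. The other steps were not tested in this way.

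Named were the paralogs ending in l with their parent genes, the 5 highest and 5 lowest members by CPM, the 5 with the highest and lowest ratio within member UMIs in each compared class, the 6 with the largest SD of their share over classes, and Rplp0, Rplp1, Rplp2 and Rpsa. Those that matter to a statement are printed. Of the other lists, high members are printed, and Pabpc1, Polr1b, Rrp9, Nop58 and Mrpl52 were chosen after their values were seen. The members and lists were chosen with earlier results of these data known. Protein sequences were not used here, and the values of some genes are not reported here.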

Additional observations from a re-analysis of the deposited data

Results flagged for a closer look

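Rpl10a was past 1.2-fold in opposite directions in 2 classes, with a log2 ratio of iIRE over control of -0.28 in macrophage/monocyte cells and 0.37 in neutrophils. In neutrophils the median over all measured members was 0.22. Relative to member UMIs, Rpl10a was at -0.27 in macrophage/monocyte cells and at 0.12 in neutrophils, where it no longer passed 1.2-fold. The difference between the classes was not tested. Without the cells that held a UMI of Cdkn2a, the ratio was -0.31 in macrophage/monocyte cells (2504 and 2019 CPM) and -0.58 in neutrophils (405 and 267 CPM), so the opposite directions were not seen there.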

How the results depend on the processing

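No paired analysis was possible because each group is 1 library, and no replicate could be left out. No alternative brought the share ratio past 1.2-fold in the 4 largest classes, but most moved it beyond its counting interval, which is very narrow. With no doublets removed, the log2 ratio was 0.0076 in mesenchymal tumor-type, -0.032 in other Cdkn2a-positive, -0.0045 in macrophage/monocyte cells and 0.15 in neutrophils. With at most 10% mitochondrial UMIs it was 0.039 in mesenchymal tumor-type and -0.025 in other Cdkn2a-positive cells. With at least 4 markers it was 0.021 in epithelial tumor-type cells, where the sign turned, 0.032 in mesenchymal tumor-type and -0.0088 in macrophage/monocyte cells. As a mean of single cells it was -0.035, 0.051, -0.050, -0.046 and 0.16 in epithelial tumor-type, mesenchymal tumor-type, other Cdkn2a-positive, macrophage/monocyte cells and neutrophils. In matched depth bins it was -0.084, 0.035, 0.037 (the sign turned), -0.066 and 0.021 in the same order. Without cells that held Cdkn2a, chosen after seeing the data, it was -0.34 in neutrophils.

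Counts of members past 1.2-fold changed by over 1.5 times in these cases. In epithelial tumor-type cells 2 were counted in place of 1 with at least 4 markers and with scaling to member UMIs. With scaling to member UMIs, 1 was counted in mesenchymal tumor-type (2 before), 2 in other Cdkn2a-positive cells (1 before) and 6 in neutrophils (30 before). With no doublets removed, 1 was counted in macrophage/monocyte cells (2 before) and 17 in neutrophils. Without cells that held Cdkn2a, 53 were counted in neutrophils, all lower in the iIRE library. TMM scaling, 1 CPM added and no minimum of UMIs kept every count within 1.5 times. The causes were not tested. The neutrophils had the fewest UMIs of the compared classes, with 428829 and 375018.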
